A study of Homo sapiens with 12 samples.

Results

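The SR proteins and the hnRNPs are the main families of RNA-binding proteins that decide which exons a transcript keeps. Genes were taken by symbol from the annotation of the arrays, which gave 12 SR genes (SRSF1 to SRSF12), both TRA2 genes and 24 hnRNP genes, 38 of the 20045 genes measured. They were read by 71 probes, and 19 of the genes had more than 1. The brightest probe stood for each gene, and the others are set against it further on. HNRNPCL4 and HNRNPA1L3 had no probe among those annotated. Another 6 probes, of 4 pseudogenes, were left out.

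The study used KMS-11, a long-established line of human multiple myeloma cells, and read its transcripts on 12 bead arrays. All cells were first starved over 24 h in 1% FBS, and then received the vehicle DMSO or the fibroblast growth factor trap NSC12 at 6 µM. RNA was taken after 6 h or 12 h, with 3 arrays in each of the 4 groups (DMSO 6 h, NSC12 6 h, DMSO 12 h and NSC12 12 h). There was 1 cell line and 1 dose, and the labels do not say whether replicates were separate cultures, so each p-value reflects only how far these samples spread, and that spread may be technical.

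SR proteins bind exonic enhancers through RNA recognition motifs and recruit the spliceosome through a tail of arginine and serine repeats, which CLK and SRPK kinases phosphorylate. Many hnRNPs act in the other direction by covering splice sites or looping out exons, and they also steer the export, stability and translation of mRNA. Genes of both families are known to hold poison exons, whose inclusion sends their own mRNA to nonsense-mediated decay, so the balance of isoforms helps set the amount of each protein.

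The promoters of a few genes are shown, to place the results on the genome and because heat shock factors are known to act on stress-responsive promoters. They are the RefSeq windows on GRCh38.p14, from 250 bases before to 50 bases after the annotated start, written 5′ to 3′ along the transcript. SRSF1 and TRA2B are shown because their transcripts were among the largest falls, and HNRNPA2B1, HNRNPC and SRSF8 because they hold the motif searched for. Capitals mark that motif, GAANNTTC, a head-to-head pair of heat shock element units that reads the same on both strands. No other motif was searched.
SRSF1 (chr17:58007197-58007496, minus strand): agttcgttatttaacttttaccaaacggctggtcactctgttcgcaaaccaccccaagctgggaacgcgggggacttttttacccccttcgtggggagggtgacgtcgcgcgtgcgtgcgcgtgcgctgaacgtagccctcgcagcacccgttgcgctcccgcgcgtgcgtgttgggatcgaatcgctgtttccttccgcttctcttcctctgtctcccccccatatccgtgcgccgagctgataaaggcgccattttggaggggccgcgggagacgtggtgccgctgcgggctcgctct
TRA2B (chr3:185937965-185938264, minus strand): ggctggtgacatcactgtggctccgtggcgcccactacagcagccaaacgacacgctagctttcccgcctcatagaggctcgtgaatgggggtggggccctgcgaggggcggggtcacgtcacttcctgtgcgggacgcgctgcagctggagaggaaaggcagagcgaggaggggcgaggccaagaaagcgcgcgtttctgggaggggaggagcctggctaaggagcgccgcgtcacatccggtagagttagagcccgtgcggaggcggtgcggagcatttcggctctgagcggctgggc
HNRNPA2B1 (chr7:26200697-26200996, minus strand): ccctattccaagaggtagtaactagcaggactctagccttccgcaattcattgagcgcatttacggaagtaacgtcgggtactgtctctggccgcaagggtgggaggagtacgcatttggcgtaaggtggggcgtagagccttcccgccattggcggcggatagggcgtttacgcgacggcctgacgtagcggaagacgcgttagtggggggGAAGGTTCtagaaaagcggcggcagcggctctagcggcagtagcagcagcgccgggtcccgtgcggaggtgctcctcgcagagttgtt
HNRNPC (chr14:21269393-21269692, minus strand): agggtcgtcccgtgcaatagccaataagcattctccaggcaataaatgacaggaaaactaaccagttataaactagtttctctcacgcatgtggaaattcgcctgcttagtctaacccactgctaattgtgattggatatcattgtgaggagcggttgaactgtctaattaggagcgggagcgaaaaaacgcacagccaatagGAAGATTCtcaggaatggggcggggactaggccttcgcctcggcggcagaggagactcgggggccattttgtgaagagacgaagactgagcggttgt
SRSF8 (chr11:95066627-95066926, plus strand): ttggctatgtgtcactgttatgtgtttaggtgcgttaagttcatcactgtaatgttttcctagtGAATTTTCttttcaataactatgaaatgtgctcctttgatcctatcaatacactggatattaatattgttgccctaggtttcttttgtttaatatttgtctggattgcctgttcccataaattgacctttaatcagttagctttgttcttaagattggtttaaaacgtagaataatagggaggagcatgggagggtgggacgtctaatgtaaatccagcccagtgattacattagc

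The motif lay 38 bases before the start in HNRNPA2B1, 47 bases before it in HNRNPC and 186 bases before it in SRSF8. These were 3 of the 34 genes with a window in the table (8.82%), beside 1875 of all 27305 windows (6.87%). HNRNPA1, HNRNPCL3, SRSF2 and TRA2A had none in the table. At 12 h HNRNPA2B1 and SRSF8 transcripts were lower with NSC12 and HNRNPC transcripts were higher by the main processing. Under median centring SRSF8 alone of the 3 kept its call at 12 h (HNRNPA2B1 -0.03 and HNRNPC 0.39, adjusted p = 0.937 and 0.115). The median GC content was 63.8% over the windows of these genes and 58.3% over all windows.

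Levels below are quantile-normalised log2 intensities, in which a difference of 1 is a doubling, and levels of different probes are not compared. Mean intensity per array on the deposited linear scale ran from 347 to 634, lowest in DMSO 6 h replicate 3. The background was set at 6.96, the 95th percentile of 371 olfactory receptor genes, and 37 of the 38 genes lay above it in at least 1 group. SRSF12 was the exception. All 12 plasma cell and myeloma markers lay above background in at least 1 group, with JCHAIN between 13.90 and 14.05 in the 4 groups. Of other cell types, 2 of 9 T and NK cell markers did (group means up to 7.17), 6 of 8 myeloid markers (up to 7.54, FCGR3A in NSC12 12 h) and 2 of 8 stromal and endothelial markers (up to 7.31, DCN in NSC12 12 h). CD3D, CSF1R and COL1A1 lay below background in every group. CD38, which defines plasma cells, was near background, between 6.92 and 7.05, and so was SLAMF7, between 6.96 and 7.27.

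Many of these transcripts were lower with NSC12 at 6 h. At 12 h 7 hnRNPs passed as higher, 18.4% of the 38 genes, near the 21.4% of all genes above background. No SR gene passed as higher by its brightest probe. A dimmer probe of SRSF3 did, by 0.39 at 12 h (adjusted p = 0.00947 over all probes). At 6 h 15 genes were lower and 1 was higher at an adjusted p under 0.05, which is 42.1% of the 38. The share was 13.1% of all genes tested (7.51% lower and 5.56% higher) and 20.4% of the genes above background (11.8% lower and 8.69% higher). At 12 h 17 were lower and 7 higher, 63.2% of the 38. This stood beside 28.9% of all genes (15.2% lower and 13.6% higher) and 45.4% of those above background (23.9% lower and 21.4% higher). The median log2 change was -0.06 at 6 h and -0.20 at 12 h, beside -0.001 for all genes at both times. With each array centred on its median in place of quantile normalisation, 11 were lower and 0 higher at 6 h, and 12 and 5 at 12 h. That scaling also moved the split over all genes, from 1114 higher and 1505 lower to 276 and 1193 at 6 h, and from 2736 and 3050 to 1483 and 2604 at 12 h. In RNA from whole cultures, fewer cells of a kind and less RNA per cell cannot be told apart.

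**Figure D1:**
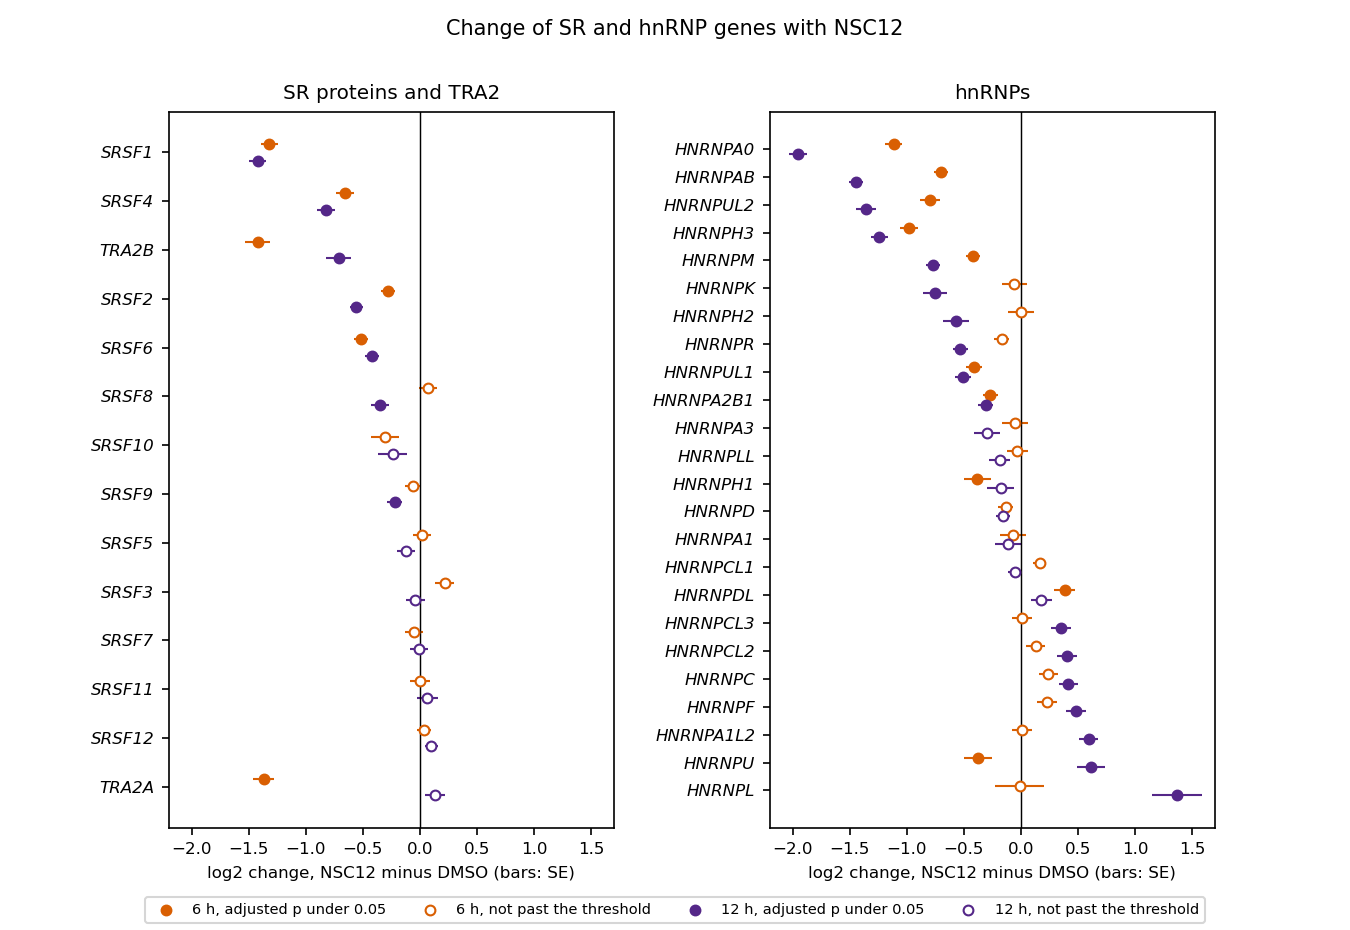
Log2 change with NSC12 (x axis, bars are the SE of the fit) for each of the 38 genes (y axis), with SR and TRA2 genes on the left and hnRNPs on the right. Orange marks 6 h and purple 12 h, and filled points passed an adjusted p of 0.05. All 7 genes that passed as higher at 12 h are hnRNPs, and TRA2A is far below 0 at 6 h only.

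The 3 arrays of NSC12 lay entirely below or above the 3 of DMSO for 21 of the 38 genes at 6 h, 16 of them lower, beside 28.0% of all genes. At 12 h this held for 27, 19 of them lower, beside 38.2% of all genes. Falls of at least 2-fold are few on these arrays: 38 genes passed with one at 6 h (0.190%), and 4 of them were TRA2B, TRA2A, SRSF1 and HNRNPA0. Ranked from the largest fall among all genes at 6 h, they stood at places 7, 9, 10 and 22. At 12 h 190 genes fell by that much (0.948%), among them HNRNPA0 at place 3, HNRNPAB at 19, SRSF1 at 22, HNRNPUL2 at 35, and HNRNPH3.

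Among the 14 SR and TRA2 genes, 6 were lower (42.9%) and 0 higher at 6 h, beside 11.8% lower and 8.69% higher of all genes above background. At 12 h 7 were lower (50%) and 0 higher, beside 23.9% and 21.4%. In limma at an unadjusted p under 0.05, 1 of the 14 was higher at 6 h and 0 at 12 h, with no share over all genes computed for that threshold. TRA2B is an SR-like protein that binds purine-rich exonic enhancers. Its level was 12.02, 12.07 and 11.81 in the DMSO arrays and 10.72, 10.59 and 10.33 in the NSC12 arrays at 6 h. At 12 h it was 12.03, 11.81 and 11.59 in DMSO and 10.93, 11.13 and 11.24 in NSC12. Every treated array lay below every vehicle array at both times, and the treated arrays at 12 h lay above those at 6 h. TRA2B was 2.68-fold lower at 6 h (log2 change -1.42 ± 0.11 SE, adjusted p = 3.31e-09) and 1.64-fold lower at 12 h (-0.71 ± 0.11, adjusted p = 2.11e-05). The effect at 12 h was weaker by 0.71 ± 0.15 (adjusted p = 0.00424), and this difference did not pass under median centring (0.85, adjusted p = 0.0544).

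TRA2A, its paralogue with the same kind of target, was measured at 9.63, 9.91 and 9.68 in DMSO and 8.44, 8.25 and 8.42 in NSC12 at 6 h. At 12 h the arrays read 9.33, 9.31 and 9.56 in DMSO and 9.52, 9.55 and 9.54 in NSC12. The groups were far apart at 6 h and overlapped at 12 h. TRA2A fell by 1.37 ± 0.09 at 6 h (2.58-fold, adjusted p = 1.83e-10), while at 12 h its change was 0.13 ± 0.09 (adjusted p = 0.329). The difference between the times, 1.503 ± 0.13 (adjusted p = 4.11e-07), was the largest of the 38 genes. TRA2A in DMSO was 0.34 ± 0.09 lower at 12 h than at 6 h (adjusted p = 0.125), and TRA2B was 0.16 ± 0.11 lower (adjusted p = 0.692).

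SRSF1, a founding member of the SR family, acts in constitutive and alternative splicing and also in nonsense-mediated decay and translation. It stood at 12.64, 12.74 and 12.47 in DMSO and 11.36, 11.32 and 11.22 in NSC12 at 6 h. At 12 h it stood at 12.54, 12.65 and 12.62 in DMSO and 11.25, 11.04 and 11.25 in NSC12. The treated arrays of both times lay together, more than 1 log2 unit under the vehicle arrays. SRSF1 fell 2.49-fold at 6 h (-1.32 ± 0.08, adjusted p = 3.04e-11) and 2.68-fold at 12 h (-1.42 ± 0.08, adjusted p = 5.42e-12), and the difference of -0.10 ± 0.11 between the times did not pass (adjusted p = 0.665).

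The other SR genes that fell at both times did so by less. SRSF4, which has a long arginine and serine tail, changed by -0.65 ± 0.08 and -0.82 ± 0.08 (adjusted p = 2.58e-06 and 2.53e-08). Its relative SRSF6 changed by -0.52 ± 0.06 and -0.42 ± 0.06 (adjusted p = 2.12e-06 and 8.98e-06). SRSF2, which binds exonic enhancers and is a recurrent target of mutation in myeloid neoplasms, changed by -0.28 ± 0.06 and -0.56 ± 0.06 (adjusted p = 0.00215 and 1.74e-07). Under median centring SRSF2 changed by -0.29 and -0.28 and passed at neither time, and SRSF6 changed by -0.20 at 12 h and did not pass there (adjusted p = 0.494). These falls were larger than the spread between arrays in the main processing, since no treated array of the 3 genes reached a vehicle array.

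At 12 h only, SRSF8, an expressed retrocopy related to SRSF2, passed as lower (-0.35 ± 0.08, adjusted p = 0.00115, after 0.07 ± 0.08 at 6 h), and the difference between the times passed too (-0.43 ± 0.11, adjusted p = 0.0140), though not under median centring (-0.37, adjusted p = 0.574). SRSF9, a close relative of SRSF1, passed at 12 h (-0.22 ± 0.07, adjusted p = 0.0162). Its call was lost without DMSO 12 h replicate 1 (-0.16, adjusted p = 0.113) and without NSC12 12 h replicate 2 or 3 (-0.20 and -0.21, adjusted p = 0.0579 and 0.0575), as well as under median centring (-0.02). SRSF3, the smallest SR protein, SRSF7, its relative with a zinc knuckle, SRSF5, SRSF10, SRSF11 and SRSF12 passed at neither time by their brightest probes. Their changes ran from -0.31 (SRSF10, adjusted p = 0.123) to 0.22 (SRSF3, adjusted p = 0.0972) at 6 h. At 12 h they ran from -0.24 (SRSF10, adjusted p = 0.184) to 0.10 (SRSF12, below background). SRSF10 passed as lower at 12 h without DMSO 12 h replicate 1 (-0.41, adjusted p = 0.00600). At 6 h it passed without DMSO 12 h replicate 1 or 3 (-0.31, adjusted p = 0.0393 and 0.0345) and under median centring (-0.44, adjusted p = 0.0326).

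**Figure D2:**
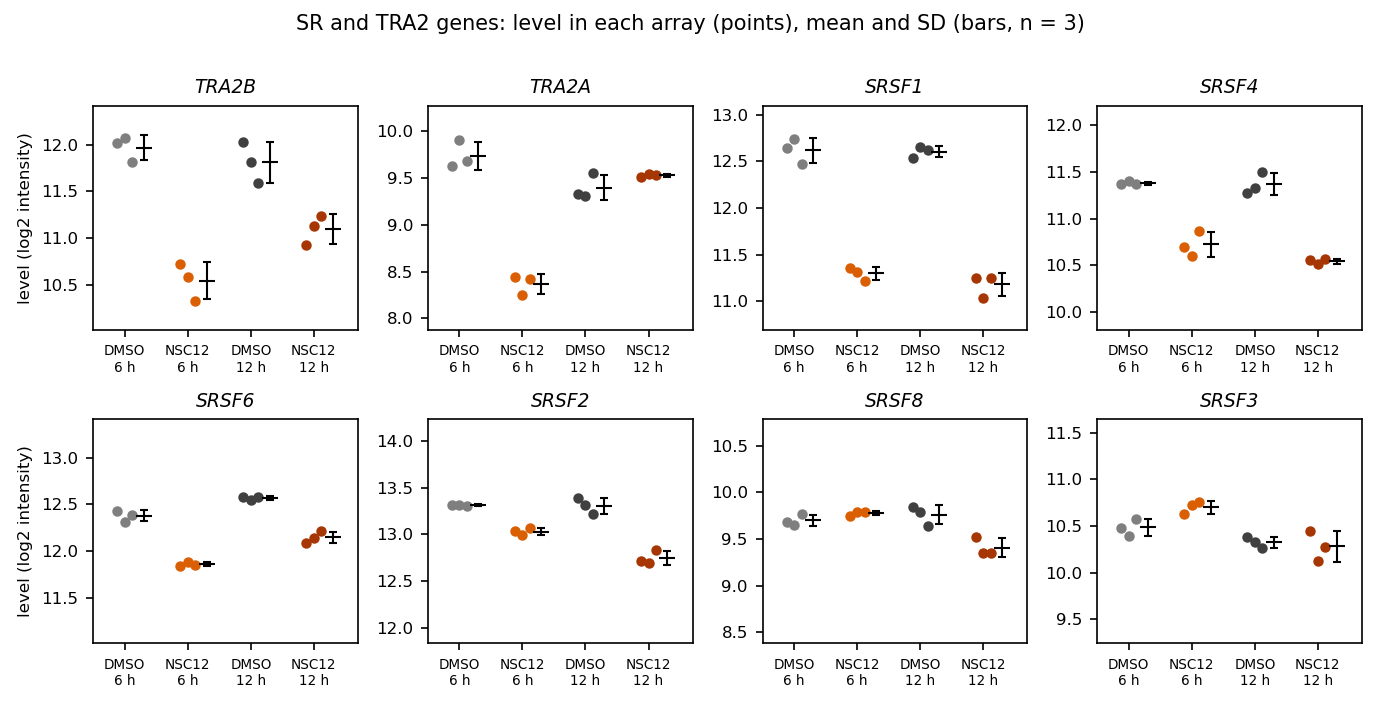
Level in each array (points, log2 intensity on the y axis) with the mean and SD of 3 arrays (bars) for 8 SR and TRA2 genes in the 4 groups on the x axis. The y axes do not start at 0, and each panel has its own. TRA2A is low in NSC12 at 6 h and level with DMSO at 12 h, while SRSF1 is low in NSC12 at both times.

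Of the 24 hnRNP genes 9 were lower and 1 higher at 6 h (37.5% and 4.17%), beside 11.8% and 8.69% of all genes above background. At 12 h 10 were lower and 7 higher (41.7% and 29.2%), beside 23.9% and 21.4%. Among these 7, HNRNPC, HNRNPCL2 and HNRNPCL3 may be 1 signal, and HNRNPU and HNRNPA1L2 did not pass as the mean of their probes. HNRNPA0, which binds AU-rich elements of mRNAs and is a substrate of the stress kinase MAPKAPK2, had the largest fall of the 38 genes at 12 h. It read 11.09, 11.07 and 11.15 in DMSO and 10.04, 9.94 and 9.99 in NSC12 at 6 h. At 12 h it read 11.06, 11.23 and 11.10 in DMSO and 9.30, 9.05 and 9.19 in NSC12. The DMSO arrays of both times lay together and the treated arrays stepped down from 6 h to 12 h. HNRNPA0 was 2.17-fold lower at 6 h (-1.11 ± 0.08, adjusted p = 5.83e-10) and 3.87-fold lower at 12 h (-1.95 ± 0.08, adjusted p = 1.79e-14). The further fall of -0.84 ± 0.11 between the times passed (adjusted p = 4.43e-05), except under median centring (-0.80, adjusted p = 0.0769).

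HNRNPAB, of the A/B type, binds mRNAs and takes part in their transport and editing. Its level was 12.58, 12.61 and 12.65 in DMSO and 11.93, 11.88 and 11.94 in NSC12 at 6 h, then 12.59, 12.60 and 12.55 in DMSO and 11.12, 11.21 and 11.06 in NSC12 at 12 h. The groups did not overlap, and the step down at 12 h was of the size of the one at 6 h. HNRNPAB was 1.62-fold lower at 6 h (-0.70 ± 0.06, adjusted p = 3.36e-08) and 2.73-fold lower at 12 h (-1.45 ± 0.06, adjusted p = 6.50e-14), a difference of -0.75 ± 0.09 (adjusted p = 1.27e-05). Under median centring this difference was -0.58 (adjusted p = 0.265).

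HNRNPUL2, a relative of HNRNPU with a role at DNA breaks, was at 10.09, 10.12 and 10.26 in DMSO and 9.46, 9.30 and 9.32 in NSC12 at 6 h. At 12 h it was at 10.27, 10.24 and 10.24 in DMSO and 8.71, 9.07 and 8.90 in NSC12. Again every treated array was below every vehicle array. HNRNPUL2 was 1.74-fold lower at 6 h (-0.80 ± 0.09, adjusted p = 8.90e-07) and 2.57-fold lower at 12 h (-1.36 ± 0.09, adjusted p = 7.79e-11). The difference of -0.56 ± 0.12 passed (adjusted p = 0.00443), but not under median centring (-0.55, adjusted p = 0.302).

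HNRNPH3, of the H/F type that binds runs of guanine, fell 1.98-fold at 6 h (-0.98 ± 0.08, adjusted p = 4.52e-09) and 2.36-fold at 12 h (-1.24 ± 0.08, adjusted p = 5.03e-11). HNRNPM, which acts in the heat shock arrest of splicing and in alternative splicing, changed by -0.42 ± 0.06 and -0.77 ± 0.06. HNRNPUL1 changed by -0.41 ± 0.07 and -0.51 ± 0.07, and HNRNPA2B1, which sorts RNAs into transport granules and exosomes, by -0.27 ± 0.07 and -0.31 ± 0.07. HNRNPA2B1 lost its call at 6 h without DMSO 6 h replicate 2 (-0.21, adjusted p = 0.0620) and with cyclic loess (-0.21, adjusted p = 0.0537). Under median centring it passed at neither time (-0.25 and -0.03, adjusted p = 0.452 and 0.937), HNRNPM did not pass at 6 h (-0.44, adjusted p = 0.0779) and HNRNPUL1 passed at neither (-0.50 and -0.42, adjusted p = 0.0698 and 0.0858). As the mean of its probes HNRNPUL1 passed at neither time, with -0.17 and -0.10 (adjusted p = 0.0810 and 0.284).

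At 12 h only, HNRNPK, the poly(C)-binding hnRNP, passed as lower (-0.75 ± 0.11, adjusted p = 9.80e-06), as did HNRNPH2 (-0.57 ± 0.11, adjusted p = 0.000421) and HNRNPR (-0.53 ± 0.07, adjusted p = 1.38e-06). Their changes at 6 h were -0.06, 0.00 and -0.17. The differences between the times passed for HNRNPK (-0.69 ± 0.15, adjusted p = 0.00465), HNRNPH2 (-0.57 ± 0.16, adjusted p = 0.0241), HNRNPR (-0.36 ± 0.09, adjusted p = 0.0136) and HNRNPM (-0.35 ± 0.08, adjusted p = 0.00820). Under median centring none of these 4 differences passed, with -0.48 for HNRNPK, -0.55 for HNRNPH2, -0.13 for HNRNPR and -0.11 for HNRNPM (adjusted p = 0.393, 0.278, 0.889 and 0.911), and the fall of HNRNPR at 12 h did not pass either (-0.36, adjusted p = 0.130). The HNRNPR difference was also lost with its probes averaged (-0.20, adjusted p = 0.259) and without NSC12 6 h replicate 3 (-0.32, adjusted p = 0.0501). HNRNPH2 lost it when any of DMSO 6 h replicates 1 and 2, NSC12 6 h replicate 3 and NSC12 12 h replicates 2 and 3 was left out (-0.56 to -0.44, adjusted p from 0.0563 to 0.0868). HNRNPH1, nearly identical to HNRNPH2 so that their probes may share signal, passed as lower at 6 h (-0.38 ± 0.12, adjusted p = 0.0350) and not at 12 h (-0.18 ± 0.12, adjusted p = 0.335). Without DMSO 12 h replicate 1 it passed at 12 h (-0.32, adjusted p = 0.0324). Its call at 6 h was lost without DMSO 6 h replicate 1 or 2 or NSC12 6 h replicate 2 or 3 (-0.37 to -0.29, adjusted p from 0.104 to 0.186). It was lost in 10 of 23 alternatives, among them median centring (-0.51, adjusted p = 0.0710) and the mean of its probes (-0.24, adjusted p = 0.187).

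HNRNPL binds CA repeats and regulates exons of the CD45 transcript. It read 9.72, 9.62 and 9.06 in DMSO and 9.28, 9.75 and 9.34 in NSC12 at 6 h. At 12 h it read 9.28, 9.62 and 10.61 in DMSO and 11.24, 11.17 and 11.20 in NSC12. The groups overlapped at 6 h, and at 12 h all treated arrays lay above the vehicle arrays, whose replicate 3 stood about 1 unit above the other two. HNRNPL rose 2.58-fold at 12 h (1.36 ± 0.22, adjusted p = 3.19e-05), the largest rise of the 38 genes, after -0.01 ± 0.22 at 6 h (adjusted p = 0.984). The difference between the times was 1.38 ± 0.31 (adjusted p = 0.00488). Without DMSO 12 h replicate 3 the rise was 1.76, and over all alternatives it ran from 1.09 to 1.76 and kept its call.

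HNRNPU, also known as scaffold attachment factor A, ties RNA to chromatin. Its brightest probe read 8.97, 9.16 and 9.28 in DMSO and 8.88, 8.67 and 8.74 in NSC12 at 6 h. At 12 h it read 8.89, 9.16 and 9.52 in DMSO and 9.72, 9.93 and 9.77 in NSC12. The treated arrays lay just under the vehicle arrays at 6 h and above them at 12 h. HNRNPU changed by -0.38 ± 0.12 at 6 h (adjusted p = 0.0392) and by 0.61 ± 0.12 at 12 h (adjusted p = 0.000298), a difference of 0.99 ± 0.17 (adjusted p = 0.000585). It was the 1 gene that passed in opposite directions. The call at 6 h was lost when any of 6 arrays was left out (DMSO 6 h replicates 2 and 3, NSC12 6 h replicates 2 and 3, DMSO 12 h replicate 2 and NSC12 12 h replicate 3), with changes from -0.38 to -0.31 and an adjusted p from 0.0530 to 0.164. The rise at 12 h was not shared by the gene's other probe, as given below, and as the mean of both probes it was 0.10 (adjusted p = 0.518). The difference between the times was then 0.40 and did not pass (adjusted p = 0.0762).

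HNRNPF, which like the H proteins binds guanine runs, was at 7.59, 7.88 and 7.91 in DMSO and 7.998, 8.03 and 8.03 in NSC12 at 6 h, and at 7.77, 7.74 and 7.62 in DMSO and 8.25, 8.22 and 8.11 in NSC12 at 12 h. The groups did not overlap at either time. HNRNPF rose 1.40-fold at 12 h (0.48 ± 0.09, adjusted p = 0.000134), and at 6 h the change of 0.23 ± 0.09 did not pass (adjusted p = 0.102). HNRNPA1L2 is an intronless copy of HNRNPA1. It read 7.55, 7.74 and 7.67 in DMSO and 7.65, 7.68 and 7.65 in NSC12 at 6 h, and 7.70, 7.64 and 7.47 in DMSO and 8.06, 8.23 and 8.29 in NSC12 at 12 h. The groups overlapped at 6 h and lay apart at 12 h. HNRNPA1L2 was 1.51-fold higher at 12 h (0.59 ± 0.08, adjusted p = 8.91e-06), and the difference between the times was 0.58 ± 0.12 (adjusted p = 0.00276). As the mean of its probes the change at 12 h was 0.12 (adjusted p = 0.110) and the difference 0.18 (adjusted p = 0.174), and neither passed.

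HNRNPC, which binds uridine tracts and keeps Alu-derived exons out of mRNA, passed as higher at 12 h (0.42 ± 0.08, adjusted p = 0.000427), and its copies HNRNPCL2 (0.41 ± 0.09, adjusted p = 0.000817) and HNRNPCL3 (0.35 ± 0.09, adjusted p = 0.00282) did too. HNRNPC and these copies are nearly identical, so their 3 calls may be 1 signal, and each gene is uncertain. The other HNRNPC probe, annotated to NM_001077442 at a level of 10.03, rose by 0.51 at 12 h (adjusted p = 4.05e-05 over all probes). Under median centring HNRNPC (0.39, adjusted p = 0.115) and HNRNPCL3 (0.24, adjusted p = 0.216) did not pass. Without NSC12 6 h replicate 3 HNRNPC passed at 6 h (0.32, adjusted p = 0.0233). HNRNPA1, which antagonises SRSF1 in the choice of splice sites, changed by -0.07 ± 0.11 and -0.11 ± 0.11 and passed at neither time by its brightest probe. As the mean of its probes it passed as lower at 12 h (-0.54, adjusted p = 0.00588), and with its copies and pseudogenes it is uncertain in the same way. A probe annotated to the pseudogene HNRNPA1P33 had a mean level of 12.34 and changes of 0.17 and -0.17. A probe annotated to HNRNPA1P10 had a mean level of 11.37 and changes of 0.21 and 0.49.

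HNRNPDL, a relative of the AU-rich element binder HNRNPD, was the 1 gene that passed as higher at 6 h. It read 10.32, 10.05 and 10.36 in DMSO and 10.73, 10.53 and 10.62 in NSC12 at 6 h, and 9.71, 9.92 and 10.01 in DMSO and 10.10, 9.995 and 10.08 in NSC12 at 12 h. The groups lay apart at 6 h and overlapped at 12 h, where both stood lower than at 6 h. HNRNPDL rose 1.30-fold at 6 h (0.38 ± 0.09, adjusted p = 0.00576), and at 12 h its change was 0.18 ± 0.09 (adjusted p = 0.177). Without DMSO 6 h replicate 2 the rise was 0.29 (adjusted p = 0.0564), under median centring 0.22 (adjusted p = 0.644) and with its probes averaged 0.14 (adjusted p = 0.196), so that it did not pass. HNRNPD itself changed by -0.13 ± 0.06 and -0.16 ± 0.06, HNRNPA3 by -0.05 ± 0.11 and -0.29 ± 0.11 (adjusted p = 0.0535 at 12 h), HNRNPLL, which regulates CD45 exons in lymphocytes and plasma cells, by -0.03 ± 0.09 and -0.19 ± 0.09, and HNRNPCL1 by 0.17 ± 0.06 and -0.05 ± 0.06 at levels near background. None of these 4 passed at either time by its brightest probe. The other HNRNPD probe, annotated to NM_002138 at a level of 13.66, fell by 0.31 ± 0.06 at 6 h and by 0.34 ± 0.06 at 12 h (adjusted p = 0.000614 and 6.02e-05 over all probes). As the mean of both probes HNRNPD changed by -0.22 and -0.25 and passed (adjusted p = 0.00320 and 0.000405), and without NSC12 12 h replicate 3 its brightest probe passed at 12 h (-0.23, adjusted p = 0.0157). HNRNPA3 passed at 12 h when replicate 1 was left out of DMSO 6 h (-0.29), of DMSO 12 h (-0.33) or of NSC12 12 h (-0.42), with an adjusted p from 0.00552 to 0.0486. It passed as lower at 12 h in 7 of 23 alternatives, among them median centring (-0.43, adjusted p = 0.0468) and cyclic loess (-0.34, adjusted p = 0.0188). HNRNPCL1 passed at 6 h without NSC12 6 h replicate 2 (0.21, adjusted p = 0.0280).

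**Figure D3:**
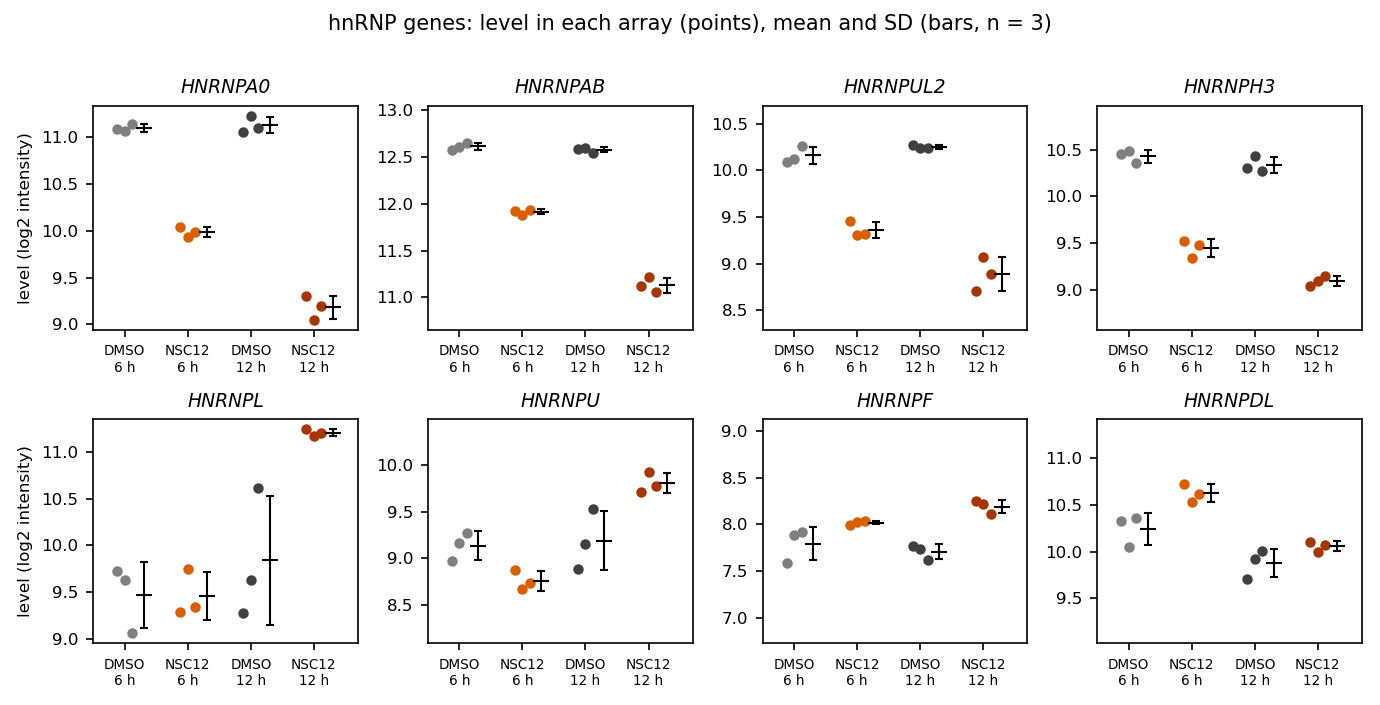
Level in each array (points, log2 intensity on the y axis) with the mean and SD of 3 arrays (bars) for 8 hnRNP genes in the 4 groups on the x axis. The y axes do not start at 0, and each panel has its own. HNRNPA0, HNRNPAB and HNRNPUL2 step down from 6 h to 12 h of NSC12, and HNRNPL is higher in NSC12 at 12 h.

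Compared between the times as such, 14 of the 38 genes responded differently at 12 h than at 6 h (36.8%). The share was 10.4% of all genes and 16.4% of those above background. The change at 12 h was higher for 5 and lower for 9, beside 4.66% and 5.77% of all genes (7.32% and 9.04% above background). With median centring the split was 4 and 0. Taking the calls at each time, 12 genes were lower at both times, 5 passed as lower at 12 h only and 6 as higher at 12 h only. TRA2A and HNRNPH1 passed as lower and HNRNPDL as higher at 6 h only, HNRNPU passed both ways, and 11 passed at neither time. The matching shares of all genes were not computed, so these counts only describe the 38 genes. In DMSO alone, limma called 0 of the 38 genes different between 12 h and 6 h (beside 0.399% of all genes, 0.249% higher and 0.150% lower). At an unadjusted p under 0.05 there were 10, of which 7 were lower at 12 h. The share of all genes at that threshold was not computed, so the 10 are not read as a trait of these genes. With single arrays left out, HNRNPDL passed as lower over time without DMSO 6 h replicate 2 (-0.46, adjusted p = 0.0479) or DMSO 12 h replicate 3 (-0.43, adjusted p = 0.0342), and TRA2A without DMSO 12 h replicate 3 (-0.42, adjusted p = 0.0316).

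Probes of the same gene were then tested against each other, since stress is known to switch isoforms of these genes and a probe reads only the isoforms that hold its target. Each other probe was set against the brightest one in a single model, over all 4358 such pairs of the table with both probes above background in at least 1 group. These genes gave 30 pairs in 18 genes. At 6 h 4 pairs changed differently (13.3%, beside 10.3% of all pairs), in HNRNPA2B1, HNRNPDL, HNRNPH3 and HNRNPUL1. At 12 h 15 pairs did (50%, beside 38.0% of all pairs), in 12 genes, and in 8 of the 15 the probes changed with opposite signs. How often signs were opposite over all called pairs was not computed. Several of the 8 rest on a dim probe (HNRNPK, HNRNPUL1, SRSF3 and HNRNPA1L2), and the HNRNPK one changed by only 0.0005. The sequences of the probes were not used here, so which exon or isoform each one reads is not known beyond the transcript it is annotated to.

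HNRNPU gave the largest difference at 12 h among pairs with both probes well above background. The probe that stands for the gene above, annotated to transcript NM_004501, rose by 0.61. The probe annotated to NM_031844 read 9.12, 9.27 and 9.31 in DMSO and 8.75, 8.97 and 8.77 in NSC12 at 12 h and changed by -0.41 (adjusted p = 0.00298 over all probes). The first probe was higher and the second lower in every treated array. The gap of 1.02 ± 0.13 passed (adjusted p = 1.71e-05). At 6 h the HNRNPU probes changed by -0.38 and -0.22, and their gap did not pass (adjusted p = 0.541).

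HNRNPA1 had 2 probes annotated to the same transcript, and at 12 h they changed by -0.11 and -0.96, a gap of 0.85 ± 0.17 (adjusted p = 0.000930). The second read 8.52, 8.85 and 9.13 in DMSO and 8.30, 7.52 and 7.79 in NSC12, so the groups lay apart for it, whereas they overlapped for the brighter one. For HNRNPA1L2 the probes changed by 0.59 and -0.15 (gap 0.74 ± 0.14, adjusted p = 0.000569), the second one at a level of 7.42.

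HNRNPDL at 6 h rose by 0.38 at the probe annotated to NR_003249, a noncoding transcript, and changed by -0.10 at the probe annotated to the coding transcript NM_031372. The gap was 0.48 ± 0.13 (adjusted p = 0.0267), and it did not pass when any 1 of the NSC12 6 h arrays or DMSO 6 h replicate 1 or 2 was left out (0.31 to 0.50, adjusted p from 0.0555 to 0.139). HNRNPA2B1 fell by 0.27 at its brightest probe and by 0.64 at the probe annotated to AK026373 at 6 h (gap 0.38 ± 0.10, adjusted p = 0.0217). That gap was lost without DMSO 6 h replicate 1 or 3 or NSC12 6 h replicate 2 or 3 (0.33 to 0.37). At 12 h the brightest HNRNPA2B1 probe fell by 0.31 and the probe annotated to NM_002137 by 0.77, a gap of 0.47 ± 0.11 (adjusted p = 0.00331).

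SRSF10, which represses splicing when heat shock removes its phosphates, passed at neither time by its brightest probe, but at 12 h its probes differed. They changed by -0.24 and 0.27, both annotated to NM_054016, with a gap of -0.51 ± 0.14 (adjusted p = 0.00950). The SRSF3 probes, both annotated to NM_003017, changed by -0.04 and 0.39 at 12 h, a gap of -0.43 ± 0.14 (adjusted p = 0.0260), the second one at a level of 7.34. That gap did not pass under median centring (-0.42, adjusted p = 0.0620) or without replicate 2 or 3 of either group at 12 h (-0.41 to -0.30, adjusted p from 0.0774 to 0.144). HNRNPK changed by -0.75 at its brightest probe and by -0.24 at another probe of the same transcript at 12 h (gap -0.51 ± 0.11, adjusted p = 0.00236). The HNRNPK probe at 9.93, also of that transcript, fell with the brightest one at 12 h (-0.73, adjusted p = 0.00273 over all probes). Other large gaps rest on a probe close to background, which has little room to fall. For HNRNPH3 the dim probe was at 6.89 (gaps of -0.81 ± 0.09 and -1.17 ± 0.09), for HNRNPUL1 at 7.43 and 7.18 (-0.58 ± 0.10 at 6 h and -0.63 ± 0.13 at 12 h), and for HNRNPK at 7.06 (-0.75 ± 0.16 at 12 h). A further HNRNPUL1 probe, at 10.11, changed by -0.06 at 12 h (gap -0.45 ± 0.11, adjusted p = 0.00590). The remaining probe of HNRNPH3, at 9.54, fell with the brightest one (-0.89 and -1.37). All 3 probes of HNRNPAB fell at both times, with changes from -0.78 to -0.70 at 6 h and from -1.68 to -1.45 at 12 h.

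**Figure D4:**
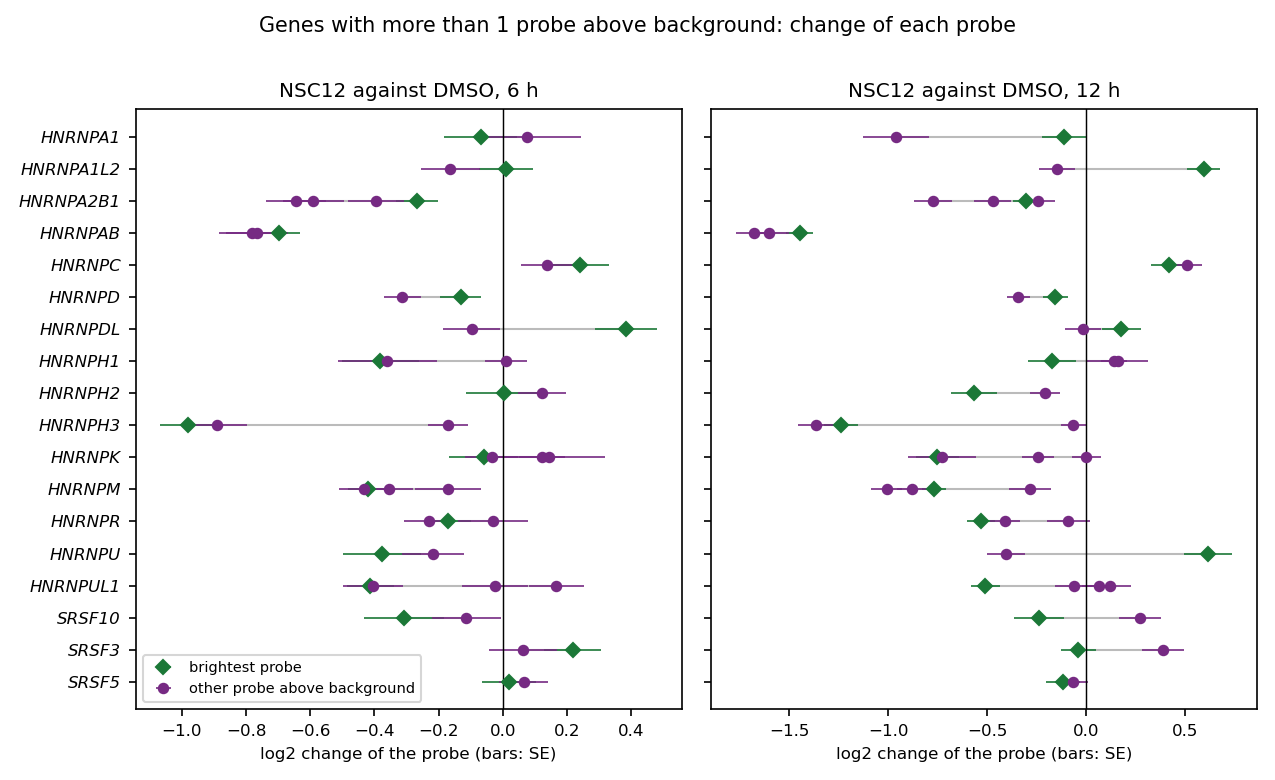
Log2 change with NSC12 (x axis, bars are the SE) of each probe above background, for the 18 genes with more than 1 such probe (y axis), at 6 h (left) and 12 h (right). Green diamonds mark the brightest probe of a gene and purple circles the others, and a grey line joins probes of a gene. The probes of HNRNPU lie on both sides of 0 at 12 h, and those of HNRNPAB lie together below 0.

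Other genes of splicing, which act with these proteins, were counted in the same fit from lists drawn up with earlier results of these data known. Of 49 core spliceosome genes 9 were lower and 2 higher at 6 h (22.4%, near the 20.4% of all genes above background), and 13 lower and 20 higher at 12 h (67.3%, beside 45.4%). DHX15, a helicase that takes spliceosomes apart, changed by -0.73 and -0.78, DDX46, which acts in early spliceosome assembly, by -0.52 and -0.89, and PRPF8, at the catalytic centre, by -0.43 and -0.95. SF3A2, of the U2 particle, rose by 0.56 and 0.76, and SLU7, which acts in the second step, rose by 0.83 at 12 h. Of 61 other splicing regulators 7 were lower and 6 higher at 6 h (21.3%), and 16 and 23 at 12 h (63.9%). TARDBP, which guards against cryptic exons, changed by -0.73 and -0.89, and RBM14 by -0.45 and -0.94, while PNN, a serine and arginine related protein of the exon junction, rose by 0.39 and 0.57.

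Of 13 kinases and partners of SR proteins, 1 was lower and 3 higher at 6 h (30.8%), and 2 and 4 at 12 h (46.2%), beside 20.4% and 45.4% of all genes above background. CLK1, which phosphorylates SR proteins, rose by 0.63 ± 0.08 at both times (adjusted p = 3.14e-06 and 8.67e-07), and CLK3 rose by 0.62 and 0.72. CLK4 fell by 0.38 at 6 h, and SRPK1, the cytoplasmic SR kinase, rose by 0.46 at 12 h. DYRK1A passed as higher at 6 h (0.40) and as lower at 12 h (-0.35). Of 13 genes of nonsense-mediated decay and the exon junction complex, 3 were lower and 1 higher at 6 h (30.8%), and 8 lower and 2 higher at 12 h (76.9%). SMG1, the kinase that phosphorylates UPF1, changed by -0.40 and -0.78, EIF4A3, the core of the junction complex, by -0.37 and -0.56, and SMG5 by -0.06 (not past the threshold) and -0.78. UPF2 rose by 0.52 at 12 h.

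**Figure D5:**
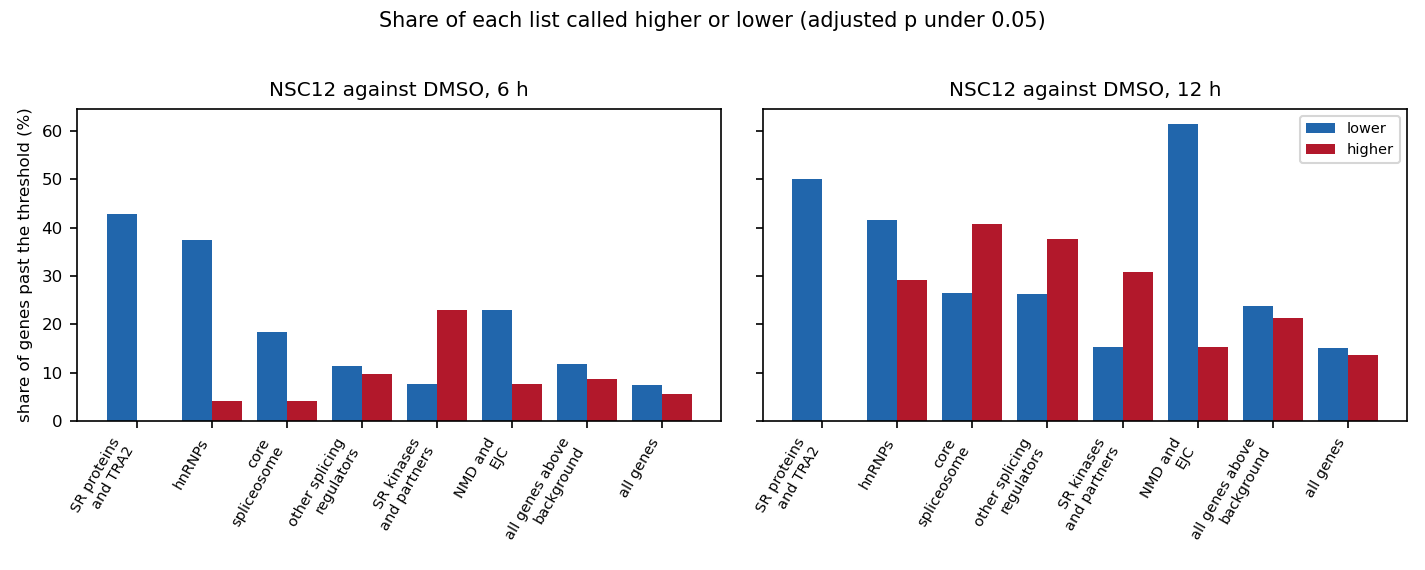
Share of each list that passed as lower (blue) or higher (red) with NSC12 (y axis, percent of the genes measured) at 6 h (left) and 12 h (right), beside all genes and all genes above background. At 6 h 42.9% of the SR and TRA2 genes and 37.5% of the hnRNPs were lower, beside 7.51% of all genes and 11.8% of those above background. At 12 h none of the SR and TRA2 genes was higher by its brightest probe. This stood beside 29.2% of the hnRNPs and 21.4% of all genes above background.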

How the data were processed

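Total RNA was extracted with Trizol and biotinylated cRNA was made for Illumina arrays, per the labels' protocols. The values deposited by the authors are linear probe intensities between 69.5 and 25534, whose scanner processing is not given in the sources used here. Since array brightness differed, they were treated as not normalised, with a background left in that understates the change of dim probes. The number of arrays limits the precision.

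Of 47319 probes, 30111 had 1 gene symbol, 8 several and 17200 none in the platform annotation, and 30072 were matched to RefSeq names (GRCh38.p14). A floor of 16 (0 values lay under it), quantile normalisation and log2 were applied, and each of 20045 genes was represented by its probe of highest mean. limma 3.58.1 (R 4.3.3) fitted 1 mean per group with an intensity trend over all genes, with Benjamini-Hochberg adjustment at 0.05. The scripts were tested on simulated data. Figures used matplotlib 3.10.9. No protein sequences were used here.

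The genes and lists were chosen with earlier results of these data known. Values in every array are given for the 4 largest rises and falls that passed at each time, the 6 largest differences between times, and TRA2B, SRSF1 and HNRNPA0. Probe pairs are named from the 6 largest called differences at each time. The 12 h pairs of HNRNPA2B1, SRSF3 and SRSF10, the brighter probes of HNRNPK, HNRNPUL1 and HNRNPH3, and the probes of HNRNPAB, HNRNPC and HNRNPD lie outside that rule. They were named after their values were seen. Genes of other lists are named from the 3 largest called changes each way.

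Same-numbered replicates did not deviate together, so no block was used. Alternatives were median centring, cyclic loess, normexp with an offset of 50, genes above background only, the mean of all probes, single probes, no trend, array brightness as a covariate, a replicate block, only the arrays compared, and leaving out each array. Leaving out the dimmest array of each DMSO group was added after seeing the data.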

Additional observations from a re-analysis of the deposited data

Results flagged for a closer look

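By a direct test in limma, the effect of NSC12 differed between 12 h and 6 h for 14 of the 38 genes. That is 36.8%, beside 10.4% of all genes and 16.4% of those above background. The differences of the log2 changes (12 h minus 6 h) were 1.503 for TRA2A, 1.38 for HNRNPL, 0.99 for HNRNPU, 0.71 for TRA2B and 0.58 for HNRNPA1L2, where the change at 12 h was the higher one. They were -0.84 for HNRNPA0, -0.75 for HNRNPAB, -0.69 for HNRNPK, -0.57 for HNRNPH2, -0.56 for HNRNPUL2, -0.43 for SRSF8, -0.36 for HNRNPR, -0.35 for HNRNPM and -0.28 for SRSF2, where the change at 12 h was the lower one. TRA2B is in the first group because its fall was smaller at 12 h, and HNRNPU because the sign turned at its brightest probe. As the mean of probes the differences of HNRNPU (0.40, adjusted p = 0.0762) and HNRNPA1L2 (0.18, adjusted p = 0.174) did not pass. The SRSF2 difference did not pass when any 1 array was left out, other than replicate 3 of either group at 12 h or replicate 2 of NSC12 6 h (-0.28 to -0.24, adjusted p from 0.0625 to 0.0988). TRA2A and HNRNPL passed in every alternative that gave this difference. Groups of 3 arrays were too small for the check for single arrays that stand apart.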

How the results depend on the processing

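Of the calls on single genes, 9 of 16 at 6 h, 14 of 24 at 12 h and 2 of 14 for the difference between times were kept in every alternative, and 1 value turned its sign, the SRSF2 difference, which was 0.00485 under median centring. The count of higher genes at 6 h (1) was 0 under median centring and as the mean of probes, 3 over genes above background only, 2 without the intensity trend, 2 with the dimmest array left out of both DMSO groups, and 0 to 2 with single arrays left out. Among those 3 was HNRNPCL1, which lay above background only in NSC12 6 h (7.04). It entered that alternative only through the group where it was highest, so its call there is no support. The difference between times had 3 higher genes as the mean of probes and 0 lower under median centring. DMSO over time had 1 lower gene over genes above background only, and 0 to 2 with single arrays left out. Probe pairs called at 6 h were 2 to 5 with single arrays left out. With the replicate number as a block, 14 genes were lower and 1 higher at 6 h, 17 and 7 at 12 h, and 8 and 5 for the difference. Only 2 of 12 arrays correlated best with their own number, so the numbers were not taken as pairs. Other counts on these genes stayed within 1.5 times. No scaling moved the median of all genes by over 0.1, but each scaling aligns the arrays and so holds that median near 0. It is therefore no check on the scaling. Signal over background limits SRSF12, HNRNPCL1 and the dim probes of HNRNPH3, HNRNPUL1 and HNRNPK, which lie near background and have little room to fall.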
